A study of Homo sapiens with 14 samples.

Results

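Glutamate tRNAs carry glutamate to the ribosome and exist in a pair of anticodon families, tRNA-Glu-CTC and tRNA-Glu-TTC, which read the glutamate codons GAG and GAA. The members described here are the clusters of crosslinked positions whose names begin tRNA-Glu- in the cluster table of the study, which the authors had built from these same libraries. There were 26 such clusters among the 493 tRNA clusters and 563 clusters of the table. Clusters under 40 nt apart were joined, which gave 12 glutamate tRNA loci, 5 of the CTC family and 7 of the TTC family, out of 248 tRNA loci and 316 loci in all. The name was the only criterion, so the counts played no part in the choice of these 12 loci within the table. Per the paper, however, the table lists only sites that reached a minimum count in most of its experiments. Counts thus decided which loci were in the table, and other glutamate tRNA genes may be absent from it.

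A tRNA folds into arms, and the T arm near its 3′ end has a loop that begins with a uridine at position 54. In most cytosolic tRNAs this uridine is methylated to methyl-5-uridine (m5U), and an adenosine a few nucleotides further on, at position 58, is methylated to methyl-1-adenosine, which blocks reverse transcription. TRMT2A is a methyltransferase of the m5U family, whose enzymes form a transient covalent bond with the uridine that they modify, and methods that trap this bond mark the nucleotide on which the enzyme acted.

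The study compared 3 ways of mapping where TRMT2A meets RNA. In FICC-Seq, cells were given 5-fluorouracil (5FU, 100 µM for 24 h), an analogue that enters RNA in place of uracil and holds the enzyme on the base it attacks, and endogenous TRMT2A was then immunoprecipitated. In iCLIP, endogenous TRMT2A was linked to RNA by UV light and taken down with the same antibody. In miCLIP, a FLAG-tagged TRMT2A with a point mutation of its catalytic base was transfected, cells were collected 24 h later and the tagged protein was recovered through its tag, so that it was present beside the cells' own enzyme. The groups were FICC-Seq of HEK293 cells, a human embryonic kidney line (3 libraries), FICC-Seq of HAP1 cells, a near-haploid human line (3 libraries), iCLIP of HEK293 (3 libraries), iCLIP of HAP1 (3 libraries) and miCLIP of HEK293 (2 libraries). The labels call every library untreated, including those of FICC-Seq, whose protocol gives the 5FU treatment. No library without crosslinking or without TRMT2A was used here, so no background of that kind can be subtracted.

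The 14 libraries held between 7002 and 104605 cDNA counts, and their counts on the glutamate tRNAs ran from 116 in iCLIP HEK293 replicate 3 to 2731 in miCLIP replicate 2, with 14808 in all. The smallest library gives a count of 0 an upper limit of 428 CPM (cDNA counts scaled to a common total of the library) and the largest one of 28.7 CPM, counting 3 counts as the limit. These limits and the intervals below cover counting error only. Counts on the opposite strand of the glutamate windows were 0 in all 14 libraries. The file headers place the HEK293 libraries of FICC-Seq and iCLIP in 1 library set and those of HAP1 in another, with miCLIP in a set of its own, so that cell line and library set cannot be told apart. FICC-Seq HEK293 replicates 1 and 3 carry the same barcode in the labels, yet their counts over loci differed by more than sampling noise (chi-square per degree of freedom 2.15 over 211 loci), and they were kept as separate samples. They were the most alike of the 6 FICC-Seq replicate pairs, the others having 4.64 to 7.9, and every replicate pair of the series exceeded sampling noise. Fewer tRNA molecules and less enzyme on each molecule cannot be told apart in such counts.

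The stretches below run from the first base of the T arm, position 49, to the last base of the gene, position 73, with the 5 bases that follow it in the genome, read 5′ to 3′ from GRCh37. They are shown because most counts fell on them and because a cDNA that starts at position 54 has to be assigned to a locus from these letters. Capitals mark the T-loop, whose first T is position 54.

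tRNA-Glu-CTC-1-1: ccgggTTCGATTcccggtcagggaaagagt

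tRNA-Glu-CTC-2-1: ccgggTTCGATTcccggtcaggaaagtaag

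tRNA-Glu-CTC-3-1: ctgcgTTCGATTcccggtcagggaacaaag

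tRNA-Glu-TTC-1-1: ccgggTTCGACTcccggtatgggaacaaaa

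tRNA-Glu-TTC-1-2: ccgggTTCGACTcccggtatgggaacgctt

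tRNA-Glu-TTC-2-1: ccgggTTCGACTcccggtgtgggaacgccg

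tRNA-Glu-TTC-4-2: ccgggTTCGATTcccggtcagggaagtttg

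tRNA-Glu-TTC-5-1: gcgggTTCGATTcccgggtaacgaaacgtt

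The T-loop of the 5 CTC loci and of TTC-3-1, TTC-4-2 and TTC-5-1 reads TTCGATT, and that of the other 4 TTC loci reads TTCGACT. Positions 54 to 73 are identical, base for base, in CTC-1-1, CTC-1-6, CTC-1-7, CTC-3-1 and TTC-4-2, so that 1 glutamate tRNA with the TTC anticodon shares its 3′ end with 4 that have the CTC anticodon. TTC-1-1 and TTC-1-2 share theirs, as do TTC-2-1 and TTC-2-2. The anticodon arms, positions 27 to 43 with the anticodon in capitals, show the same relation at the other side of the molecule.

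tRNA-Glu-CTC-1-1 anticodon arm: cggcgctCTCaccgccg

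tRNA-Glu-TTC-4-2 anticodon arm: cggcgctTTCaccgccg

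tRNA-Glu-TTC-1-1 anticodon arm: cctggttTTCacccagg

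tRNA-Glu-TTC-5-1 anticodon arm: gctgcctTTCaagcagt

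The gene ends were set at a fixed distance from position 54, 72 nt in all for each of the 12 loci, so that equal length is not a result. Counts were summed over windows around the clusters, which differed in width, without a correction for it. In GRCh37 coordinates, the build of the files, CTC-1-1 lies at chr1:145399233-145399304 on the minus strand, within an intron of HJV that is read from the other strand. CTC-1-6 lies at chr6:28949976-28950047 (plus), CTC-1-7 at chr6:126101393-126101464 (minus), CTC-2-1 at chr1:249168447-249168518 (plus) and CTC-3-1 at chr13:42030061-42030132 (minus), all outside the genes of GENCODE. TTC-1-1, at chr2:131094701-131094772 (minus), is also outside of them, whereas TTC-1-2, at chr13:41634874-41634945 (minus), is in an intron of ELF1 on its strand. TTC-2-1, at chr13:45492062-45492133 (minus), and TTC-2-2, at chr15:26327381-26327452 (minus), overlap no gene. TTC-3-1 lies at chr1:17199078-17199149 (plus), in an intron of CROCC and an exon of a long non-coding RNA on the same strand. TTC-4-2 lies at chr1:161391883-161391954 (minus), in an intron of a long non-coding RNA on its strand and an exon of another on the other strand. TTC-5-1 lies at chr1:161582508-161582579 (plus), in an intron of a protein-coding gene model on the other strand.

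Several members were copies of each other. CTC-1-1, CTC-1-6 and CTC-1-7 were identical over the whole gene, as were TTC-1-1 and TTC-1-2, and TTC-2-1 and TTC-2-2. CTC-2-1 was 98.61% identical to the CTC-1 genes, TTC-3-1 was 98.61% identical to TTC-4-2, and CTC-3-1 was 90.28% identical to the CTC-1 genes. TTC-5-1 stood apart: its closest glutamate tRNA was TTC-4-2 at 69.44% identity, whereas a glycine tRNA of the table, tRNA-Gly-TCC-2-6, was 88.89% identical to it. The CTC-1 genes were also 88.89% identical to a glycine tRNA, tRNA-Gly-CCC-7-1, but they were 100.0% identical to each other. TTC-5-1 was the only glutamate locus that was closer to a tRNA of another amino acid than to any other glutamate tRNA. With the gene ends set as above, the acceptor stem of TTC-5-1 formed 5 base pairs and its T-stem 4, against 7 and 5 in 9 of the other loci. CTC-3-1 had 6 and 4, and CTC-2-1 had 6 and 5.

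The first question was where along the glutamate tRNAs the cDNAs stopped. In FICC-Seq they stopped at position 53 or 54, next to or on the uridine that TRMT2A methylates, in about 3 of 4 cases. Position 53 is the position that the iCount software assigns when the cDNA includes the linked nucleotide, and position 54 the one assigned when it ends just before it. Both positions together held 75.4%, 74.8% and 85.0% of the glutamate counts in the FICC-Seq HEK293 libraries (replicates 1 to 3), and 76.5%, 73.6% and 74.7% in those of HAP1. In iCLIP the same positions held 23.9%, 28.7% and 11.2% in HEK293 and 25.5%, 38.2% and 21.4% in HAP1. Every FICC-Seq library was thus above every iCLIP library. The lowest iCLIP value, 11.2%, rests on 13 of 116 counts and has a 95% Wilson interval of 6.67% to 18.2%. The difference between the methods was 51.8 percentage points (57.1 in HEK293 and 46.6 in HAP1), and an exact permutation of the method labels within each cell line gave p = 0.005, the smallest value that 400 labelings allow, or 0.0225 adjusted by Benjamini-Hochberg over 9 tests. The study calls its replicates biological, but the labels do not say whether they came from separate cultures, and p-values measure the spread between these libraries only.

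**Figure D1:**
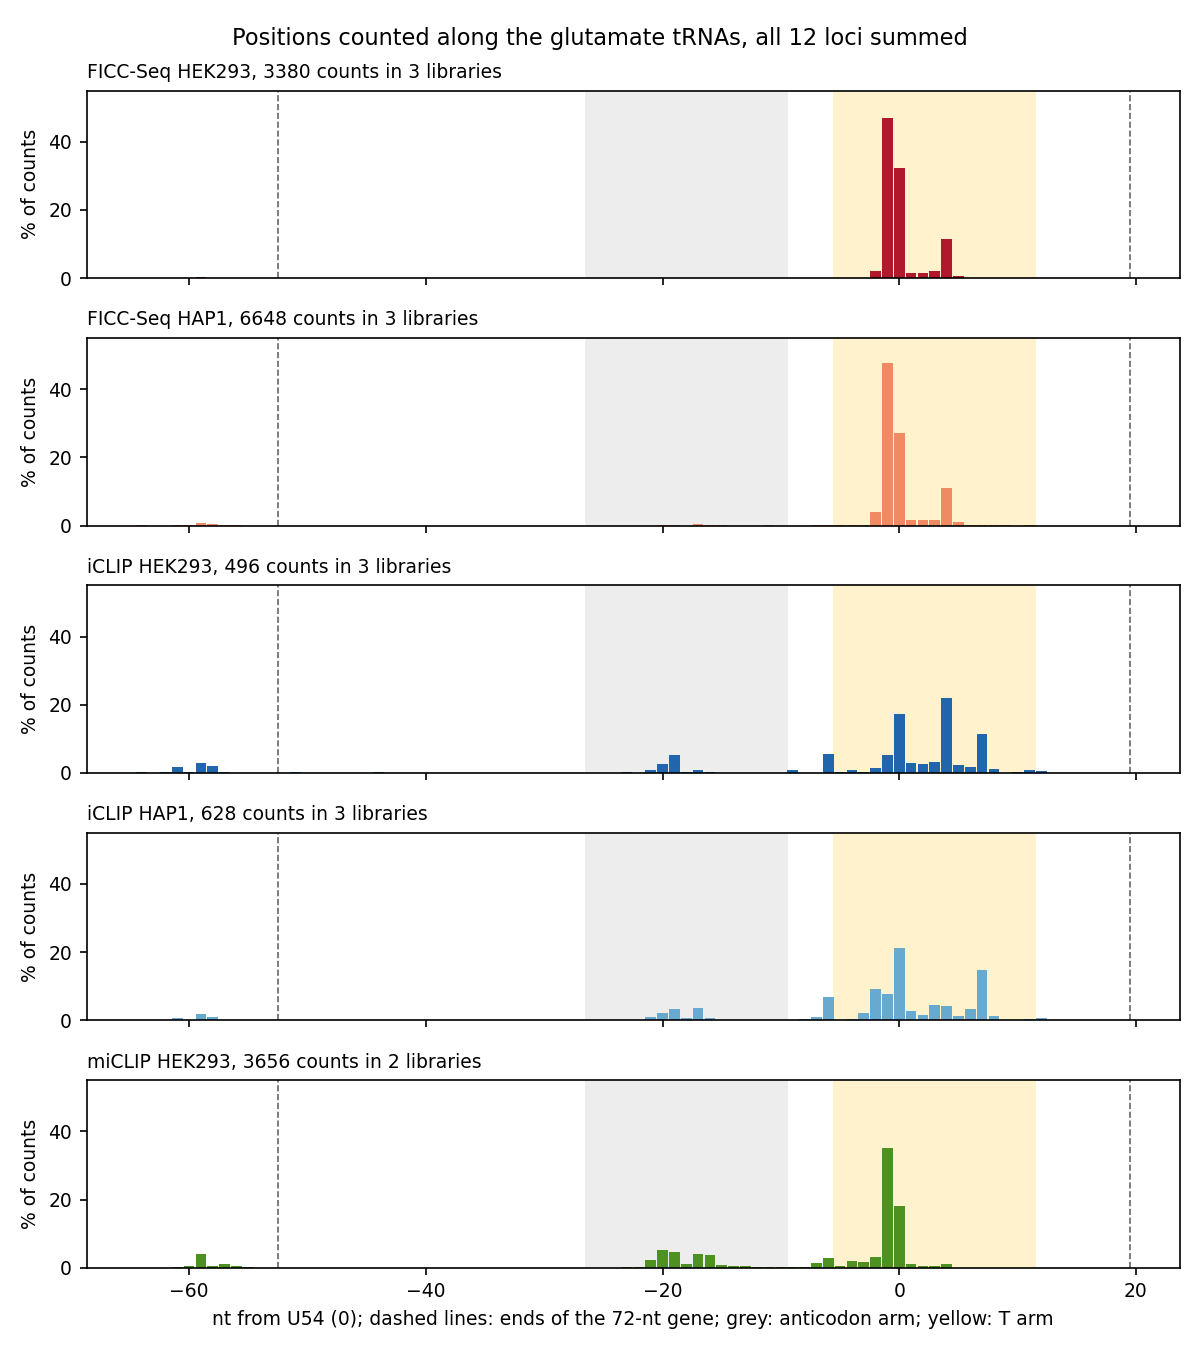
Percent of the glutamate tRNA counts (y axis, linear from 0) at each position in nt from U54 (x axis, 0 is U54), with the 12 loci and the libraries of a group summed in each panel. Position 53 (-1) held 46.9% of the FICC-Seq HEK293 counts and 47.8% of those of HAP1, against 5.24% and 7.80% in iCLIP and 35.3% in miCLIP, and miCLIP also had counts in the anticodon arm, which is shaded grey.

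The balance between both positions also differed. In FICC-Seq position 53 held from 41.5% to 52.7% of the glutamate counts per library and position 54 from 25.9% to 33.3%. In iCLIP position 53 held from 3.76% to 9.62% and position 54 from 6.90% to 30.9%, so that position 53 held more than 54 in every FICC-Seq library and 54 more than 53 in every iCLIP library. The iCLIP counts were spread over the T arm and beyond it. The position 7 nt 3′ of U54 held 11.5% of the counts of iCLIP HEK293 and 14.7% of those of iCLIP HAP1. The same place held 0.118% and 0.030% in FICC-Seq of these lines, and positions 59 to 73 together held between 16.3% and 30.5% of the counts of an iCLIP library and at most 1.68% of those of a FICC-Seq library. The anticodon arm held from 5.88% to 16.3% in iCLIP and from 0.074% to 2.998% in FICC-Seq. These regional shares were not tested, but for neither region did the libraries of the methods overlap.

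Position 58, where methyl-1-adenosine stops reverse transcription, held 14.3%, 13.9% and 7.23% of the glutamate counts in FICC-Seq HEK293 and 11.4%, 7.47% and 13.7% in FICC-Seq HAP1. The corresponding values were 29.1%, 18.6% and 13.8% in iCLIP HEK293 but 3.85%, 6.01% and 2.67% in iCLIP HAP1. The test of the methods was not passed for this share (FICC-Seq minus iCLIP -1.01 percentage points, exact permutation p = 0.81). Within the lines the difference had opposite signs, -8.69 points in HEK293 and 6.67 in HAP1. The iCLIP libraries of the lines did not overlap, while those of FICC-Seq did. Whether the difference between the methods was itself different between the lines was not tested.

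In miCLIP, position 53 held 31.2% and 36.6% of the glutamate counts. It was counted more often than position 54 at 10 of the 12 loci, the exceptions being CTC-3-1 (28 counts against 51) and TTC-2-2 (169 against 173). The 2 libraries held 58.5% and 51.5% of their glutamate counts at positions 53 and 54, and 0.86% and 1.21% at position 58. They lay below all 3 FICC-Seq HEK293 libraries at both places. Counts 5′ of the T arm, on the anticodon arm, the variable loop and the leader, made up 27.6% and 38.6% of the glutamate counts in miCLIP, against 0.642%, 2.96% and 1.03% in FICC-Seq HEK293. The anticodon arm alone held 20.2% and 24.8%, with 5.28% of the counts of both libraries on the base before the anticodon and 4.51% on its first base. The difference was 23.4 points for positions 53 and 54 and -31.5 points for the counts 5′ of the T arm. With 3 libraries against 2, an exact permutation test cannot go below p = 0.1, which both reached (adjusted p = 0.15). When only counts within 5 nt of the clusters were taken, the differences shrank to 11.2 and -16.9 points.

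The first 26 positions of the genes were nearly empty in every method, with 0% of the glutamate counts there in all but 3 libraries. The leader, just 5′ of the gene, was not. It held 28 counts in FICC-Seq HEK293, 139 in FICC-Seq HAP1, 38 in iCLIP HEK293, 25 in iCLIP HAP1 and 268 in miCLIP. Of these, between 95.7% and 100.0% per group lay from 3 to 10 nt before the first base of the gene, a stretch that is removed when a tRNA matures. TTC-4-2 gave the largest number of a single locus in FICC-Seq HAP1, 60 counts, and TTC-2-1 in miCLIP, 71 counts. No count lay 3′ of the gene within the windows.

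**Figure D2:**
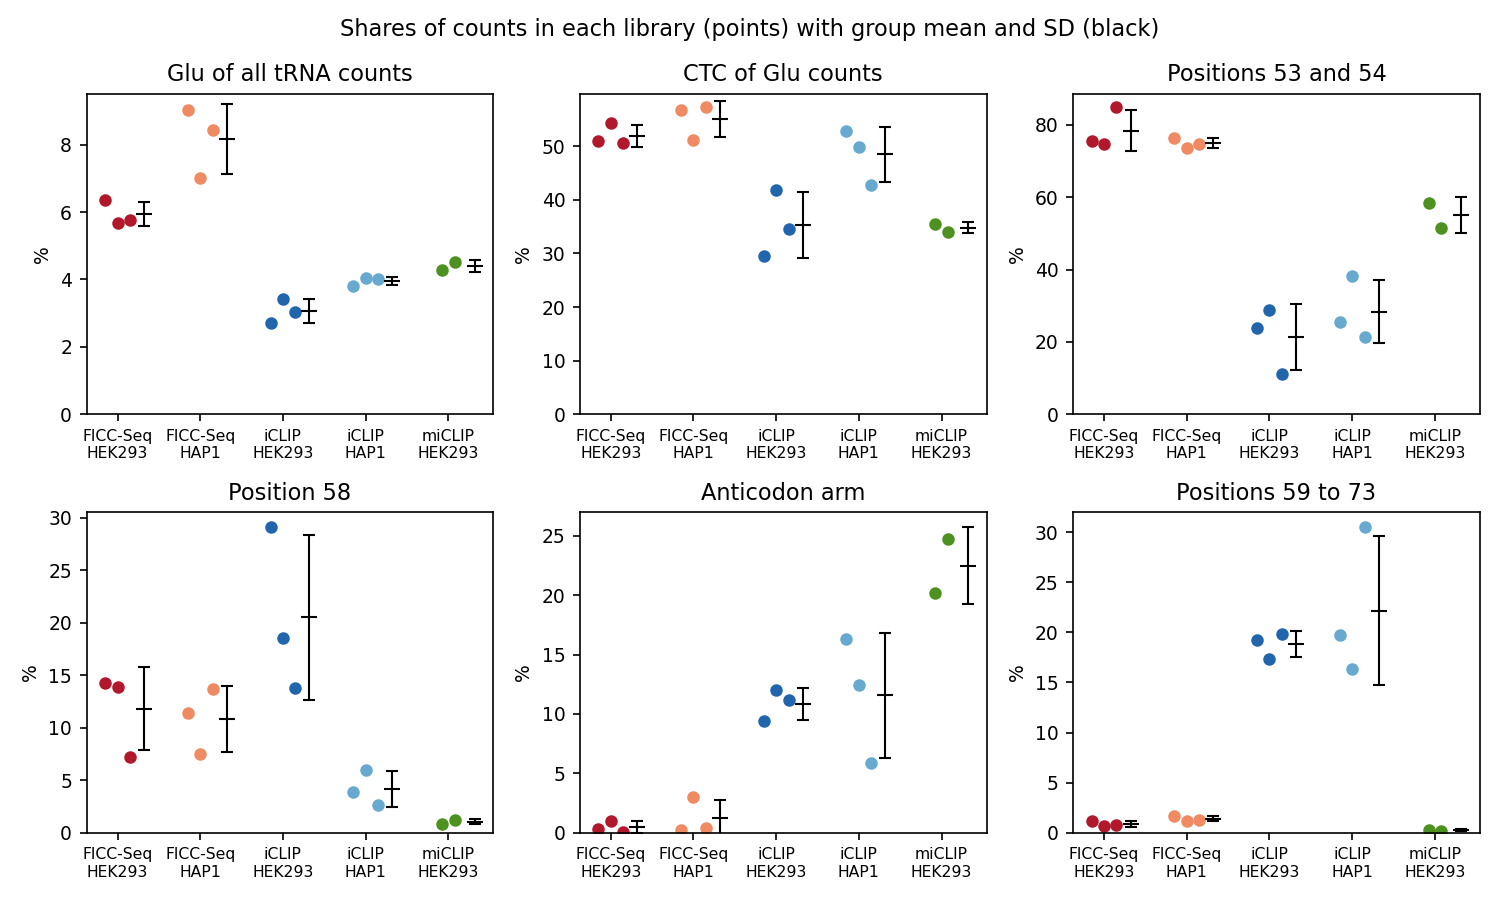
Shares in percent (y axis, linear from 0) in each library (points) with the mean and SD of its group (black bars; an SD reaching below 0 is not drawn there). The top row gives the glutamate share of tRNA counts, the CTC share of glutamate counts and positions 53 and 54, and the bottom row position 58, the anticodon arm and positions 59 to 73; FICC-Seq and iCLIP do not overlap at positions 53 and 54, in the anticodon arm or at positions 59 to 73.

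The single loci resembled each other in their leading position. Position 53 was the most counted position of FICC-Seq at all 12 loci in both lines, but for TTC-1-1 in HEK293, where position 54 led with 139 counts against 106. Taken over both lines, the share of positions 53 and 54 was 69.2% of 2905 FICC-Seq counts at TTC-4-2, 74.8% of 1987 at CTC-2-1 and 76.8% of 1280 at CTC-1-1. CTC-1-7 and CTC-1-6, with 904 and 801 counts, had 71.8% and 76.0%. The highest shares belonged to loci with fewer counts: 94.6% of 444 at CTC-3-1, 93.6% of 109 at TTC-2-2 and 94.7% of 19 at TTC-5-1. TTC-3-1, TTC-1-2, TTC-1-1 and TTC-2-1 lay between them, at 88.8%, 88.5%, 87.8% and 78.4%.

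The share at position 58 varied more among the loci. It was from 11.8% to 15.5% at TTC-4-2, CTC-1-1, CTC-1-6, CTC-1-7 and CTC-2-1, which are the 5 loci with the most FICC-Seq counts. TTC-1-1 and TTC-1-2, which are identical, had 5.83% and 5.13%, and TTC-3-1 had 2.06%. CTC-3-1 had 0 of 444 counts there, which allows a share of up to 0.676%, and TTC-2-1, TTC-2-2 and TTC-5-1 also had 0, which allows up to 1.71%, 2.75% and 15.8%. CTC-3-1 thus had no count at position 58 in any of the 6 FICC-Seq libraries, whereas each of these libraries put at least 4.01% of the counts of CTC-1-1 there. Positions 54 to 73 are identical in these 2 genes. The number of counts at position 54 for each count at position 53 was 0.395 at CTC-3-1, 0.480 at CTC-1-1, 0.652 at TTC-4-2, 0.93 at TTC-1-2 and 1.12 at TTC-1-1. Within the CTC-1 genes, which are identical, this ratio was 0.480, 0.829 and 0.754 at CTC-1-1, CTC-1-6 and CTC-1-7, and over the 6 libraries it ranged from 0.33 to 0.66 at CTC-1-1 and from 0.71 to 0.78 at CTC-1-7.

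The CTC and TTC families could not be shown to differ in their share at positions 53 and 54 over the 6 FICC-Seq libraries (CTC minus TTC 1.71 points, exact sign-flip permutation p = 0.3125). When every locus was weighted equally the sign turned, to -5.14 points with p = 0.0625 in the same exact test. The FICC-Seq libraries of HEK293 and HAP1 differed by 3.48 points (exact permutation p = 0.4, with 0.1 as the smallest value possible).

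The second question was how much of the tRNA signal fell on the glutamate tRNAs. They took 6.36%, 5.69% and 5.77% of the counts at the 248 tRNA loci of the table in FICC-Seq HEK293 and 9.02%, 7.02% and 8.45% in FICC-Seq HAP1. In iCLIP the values were 2.72%, 3.42% and 3.05% in HEK293 and 3.81%, 4.03% and 4.01% in HAP1, and in miCLIP 4.27% and 4.51%. All 6 FICC-Seq libraries lay above all other libraries. The difference between FICC-Seq and iCLIP was 3.54 points, 2.88 in HEK293 and 4.21 in HAP1, with an exact permutation p = 0.005, the smallest possible, and an adjusted p of 0.0225.

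Within the glutamate tRNAs, the CTC family took a larger part in FICC-Seq than in iCLIP. Its share was 50.9%, 54.4% and 50.5% in FICC-Seq HEK293 and 56.7%, 51.2% and 57.2% in FICC-Seq HAP1, against 29.6%, 41.9% and 34.5% in iCLIP HEK293 and 52.9%, 49.8% and 42.8% in iCLIP HAP1. The lines did not overlap in iCLIP, and in HAP1 the libraries of both methods overlapped. The difference between the methods was 11.6 points (exact permutation p = 0.01, adjusted p = 0.03), 16.6 in HEK293 and 6.54 in HAP1. Whether it differed between the lines was not tested. In miCLIP the share was 35.6% and 34.1%.

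Levels of the single loci were compared as CPM. The locus with the most FICC-Seq counts, TTC-4-2, had 13111, 10199 and 11784 CPM in FICC-Seq HEK293 and 22571, 17607 and 20304 CPM in HAP1. In iCLIP it had 6023, 6886 and 5856 CPM in HEK293 and 6354, 6584 and 8960 CPM in HAP1, and in miCLIP 923 and 1205 CPM. It was the highest glutamate tRNA in all 4 FICC-Seq and iCLIP groups and the tenth of 12 in miCLIP.

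CTC-2-1, the next in FICC-Seq, had 8769, 5694 and 7422 CPM in FICC-Seq HEK293, 17963, 9081 and 15812 CPM in HAP1, 1033, 2629 and 1857 CPM in iCLIP HEK293, 3994, 3611 and 5351 CPM in iCLIP HAP1, and 2281 and 1950 CPM in miCLIP. CTC-1-1 had 5185, 5819 and 5452 CPM in FICC-Seq HEK293, 9284, 8304 and 8574 CPM in HAP1, 1492, 3631 and 1428 CPM in iCLIP HEK293, 2723, 3717 and 2364 CPM in iCLIP HAP1, and 1691 and 2113 CPM in miCLIP. At both loci every FICC-Seq library was above every iCLIP and miCLIP library. TTC-4-2 was above CTC-2-1 without overlap in FICC-Seq HEK293, but in HAP1 the libraries of these neighbours overlapped, as did those of CTC-2-1 and CTC-1-1. In FICC-Seq HEK293 each locus from CTC-2-1, with a mean of 7295 ± 1541 CPM (SD, n = 3), down to TTC-3-1, with 2989 ± 303 CPM, overlapped with its neighbours in the order of means. TTC-2-1, with 912 ± 249.8 CPM, lay below TTC-3-1 without overlap, and above TTC-2-2, with 308 ± 159 CPM, without overlap. In HAP1 such gaps lay between CTC-1-1 and CTC-1-7, between TTC-1-2 and TTC-3-1, and between TTC-1-1 and TTC-5-1.

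Of the other loci, CTC-1-6 had from 3799 to 6058 CPM in FICC-Seq, from 631 to 1274 CPM in iCLIP and 1717 and 1683 CPM in miCLIP. CTC-1-7, identical to it, had from 4678 to 6161 CPM in FICC-Seq, from 402 to 2442 CPM in iCLIP and 2255 and 2495 CPM in miCLIP. CTC-3-1 had from 1888 to 3692 CPM in FICC-Seq, from 0 to 1274 CPM in iCLIP and 487 and 650.1 CPM in miCLIP. These 3 loci were higher in every FICC-Seq library than in any other. TTC-1-2 behaved likewise, with from 2583 to 4415 CPM in FICC-Seq, from 631 to 1285 CPM in iCLIP and 1999 and 2199 CPM in miCLIP. TTC-3-1 had from 1977 to 3330.4 CPM in FICC-Seq and from 0 to 1062 CPM in iCLIP, but its miCLIP values of 3844 and 2829.7 CPM overlapped with those of FICC-Seq. TTC-2-2 was low in both methods, from 127 to 1166 CPM in FICC-Seq and from 57.4 to 743 CPM in iCLIP, and higher in both miCLIP libraries.

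**Figure D3:**
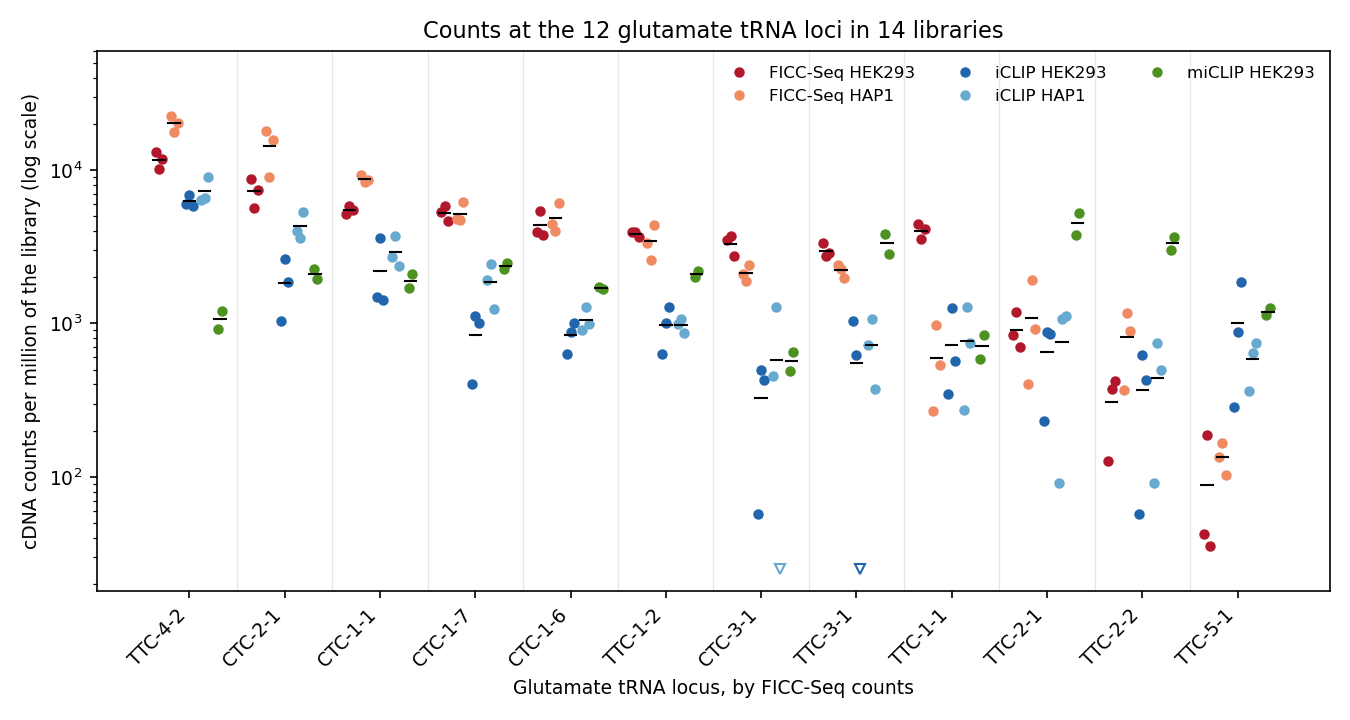
CPM, cDNA counts scaled to the total of the library (y axis, log scale), at the 12 glutamate tRNA loci (x axis, ordered by FICC-Seq counts) in each library (points), with the mean of the group as a black bar; open triangles mark the 2 libraries with 0 counts at a locus. TTC-4-2 has the highest mean in FICC-Seq and iCLIP, whereas TTC-2-1, TTC-3-1 and TTC-2-2 lead in miCLIP and TTC-5-1 is lowest in FICC-Seq.

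A limma-voom fit over 289 loci of all types tested each locus across the methods. Of the 12 glutamate loci, all of which passed the filter on low counts, 9 were higher and 1 was lower in FICC-Seq than in iCLIP at an adjusted p under 0.05, where 62.3% of all loci passed the test, 35.3% of all as higher and 27% of all as lower. The largest difference was at CTC-3-1, with a log2 fold change of 3.11 (SE 0.513, adjusted p = 2.67e-05), where 1 iCLIP HAP1 library had 0 counts. CTC-1-6, TTC-3-1 and CTC-1-7 followed with 2.24, 2.22 and 2.15, then CTC-2-1, TTC-1-2 and CTC-1-1 with 1.95, 1.89 and 1.54. TTC-1-1 and TTC-4-2 had the smallest differences of those that passed, 1.21 and 1.20. TTC-2-1 and TTC-2-2, at 0.76 (SE 0.565) and 0.55 (SE 0.591), did not pass. With counts within 5 nt of the clusters alone, TTC-2-2 was at 1.57 and passed (adjusted p = 0.0309).

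The median log2 fold change was 1.72 over the 12 glutamate loci and 0.45 over all 289 loci. Scaling by the median ratio over loci, in place of the library total, moved the median of all loci to -0.31 and that of the glutamate loci to 0.90. Such a change shifts all loci by a similar amount, so it could hardly alter the distance of the glutamate loci from the rest. The loci that passed then numbered 7 higher and 1 lower, without TTC-4-2 (0.42, adjusted p = 0.0757) and TTC-1-1 (0.37, adjusted p = 0.467), while over all loci the split changed from 102 higher and 78 lower to 60 and 106. TTC-1-1 also failed to pass without iCLIP HEK293 replicate 1, iCLIP HAP1 replicate 1 or FICC-Seq HAP1 replicate 2, at 0.92, 0.90 and 0.97, and in a fit without weights for the mean-variance trend of each value (limma-trend, 0.86, adjusted p = 0.0518).

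TTC-5-1, the locus with the fewest counts and the one least like the other glutamate tRNAs in sequence, went the other way. It had 42.2, 188 and 35.2 CPM in FICC-Seq HEK293 and 135, 167 and 103 CPM in FICC-Seq HAP1, against 287, 876 and 1857 CPM in iCLIP HEK293 and 363, 637 and 747 CPM in iCLIP HAP1, with 1128 and 1262 CPM in miCLIP. All FICC-Seq libraries were below all others. These are 19 counts in 6 FICC-Seq libraries, and several of the values lie near or below the limit of 3 counts. Its log2 fold change of FICC-Seq over iCLIP was -2.53 (SE 0.543, adjusted p = 0.000431) and it was -2.98 relative to the median of all loci. TTC-5-1 reached the 10 counts of the filter only in iCLIP HEK293 replicate 3 (13 counts) and in miCLIP (44 and 132 counts). It was thus tested through groups where it was high, which favours a call as lower in FICC-Seq. The replicate number within each method was also used as a block across the cell lines. The contrast of the methods then refers to replicate 1 of each method and not to the group means. TTC-5-1 was at -1.77 in it and did not pass (adjusted p = 0.0638).

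The order of the loci in miCLIP was another one. TTC-2-1 led it with 3767 and 5239 CPM, where FICC-Seq HEK293 had 843, 1189 and 704 CPM, FICC-Seq HAP1 404, 1916 and 924 CPM, iCLIP HEK293 230, 876 and 857 CPM and iCLIP HAP1 90.8, 1062 and 1120.0 CPM. TTC-3-1 and TTC-2-2 came next with means of 3337 and 3333 CPM, overlapping with each other and with TTC-2-1 in the case of TTC-3-1. Both miCLIP libraries thus had more CPM at TTC-2-1 than any of the other 12 libraries.

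In the test of FICC-Seq HEK293 against miCLIP, 8 glutamate loci were higher in FICC-Seq and 3 were lower, where 73.4% of the 289 loci passed, 34.3% as higher and 39.1% as lower. The largest differences were at TTC-4-2, with a log2 fold change of 3.41 (SE 0.266, adjusted p = 5.68e-10), and at TTC-5-1, TTC-2-2 and TTC-2-1, with -3.81, -3.54 and -2.45 (adjusted p from 3.06e-05 to 0.000161). TTC-5-1 passed the filter on low counts through miCLIP and an iCLIP library alone, which favours its call as lower. CTC-3-1 and TTC-1-1 both had 2.42, CTC-2-1 had 1.85, and CTC-1-1, CTC-1-6, CTC-1-7 and TTC-1-2 ranged from 0.84 to 1.47. TTC-3-1 did not pass, at -0.04 (SE 0.294). The medians were 1.21 over the glutamate loci and -0.11 over all loci. TTC-4-2 and TTC-3-1, which differ at 1 base in 72, were thus at 3.41 and -0.04. Under the median ratio, TTC-1-2 no longer passed (0.50, adjusted p = 0.0768) and the medians moved to 0.87 and -0.49.

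The third question was whether the cell lines differed. In FICC-Seq, TTC-1-1 had 4427, 3567 and 4116 CPM in HEK293 and 269, 972 and 539 CPM in HAP1, so that the lowest HEK293 library was above the highest of HAP1. In iCLIP its values were 344, 1252 and 571 CPM in HEK293 and 272, 1274 and 747 CPM in HAP1, which overlapped, and in miCLIP of HEK293 they were 589 and 841 CPM. The log2 fold change of HEK293 over HAP1 in FICC-Seq was 2.88 (SE 0.435, adjusted p = 7.11e-05). TTC-1-2, its identical copy, had 0.18 (SE 0.240, adjusted p = 0.774), with means of 3840 ± 158 CPM in HEK293 and 3443 ± 921 CPM in HAP1 (SD, n = 3 each).

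Among the other 11 loci, 3 passed the test and were lower in FICC-Seq HEK293 than in HAP1: CTC-2-1 (-0.87, SE 0.247, adjusted p = 0.0165), TTC-4-2 (-0.76, SE 0.143, adjusted p = 0.000816) and CTC-1-1 (-0.67, SE 0.187, adjusted p = 0.0158). This made 1 of 12 loci higher and 3 lower, where 13.5% of all 289 loci passed, 7.96% as higher and 5.54% as lower. TTC-4-2 and CTC-1-1 had no overlap between the lines, and CTC-2-1 had none either, its lowest HAP1 library at 9081 CPM being above its highest HEK293 library at 8769 CPM. CTC-2-1 did not pass without FICC-Seq HEK293 replicate 2 or 3 or FICC-Seq HAP1 replicate 1 or 3, at -0.75, -0.88, -0.72 and -0.75, and CTC-1-1 did not without FICC-Seq HEK293 replicate 1 or 3 or FICC-Seq HAP1 replicate 1, at -0.63, -0.67 and -0.63. In limma-trend TTC-1-1 and TTC-4-2 alone passed.

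In iCLIP, 0 of the 12 loci passed in limma between HEK293 and HAP1, where 1.38% of all loci did (0.692% as higher and 0.692% as lower). At an unadjusted p under 0.05 there were 2 of the 12, CTC-1-7 at -1.35 (SE 0.564) and CTC-2-1 at -1.44 (SE 0.620), where 11.1% of all loci were past the same threshold. CTC-2-1 passed in limma-trend (-1.22, adjusted p = 0.0495), where 7 of all 289 loci did, and with the block on the replicate number (-1.30, adjusted p = 0.0455), where 13 did. The test of whether the difference between lines was itself different between methods passed at 0 of the 12 loci and 0% of all 289, with 2 of the 12 and 12.8% of all loci at an unadjusted p under 0.05. For TTC-1-1 this value was 3.01 (SE 0.856, adjusted p = 0.148). As libraries of the same number deviated together across the lines, more so in FICC-Seq than in iCLIP, the fit was repeated with the number within each method as a block, chosen after seeing the data. TTC-1-1 then passed at 2.83 (SE 0.76, adjusted p = 0.0257), where 16 of all 289 loci did. Whether FICC-Seq and iCLIP differ between the lines at TTC-1-1 thus rested on that choice.

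**Figure D4:**
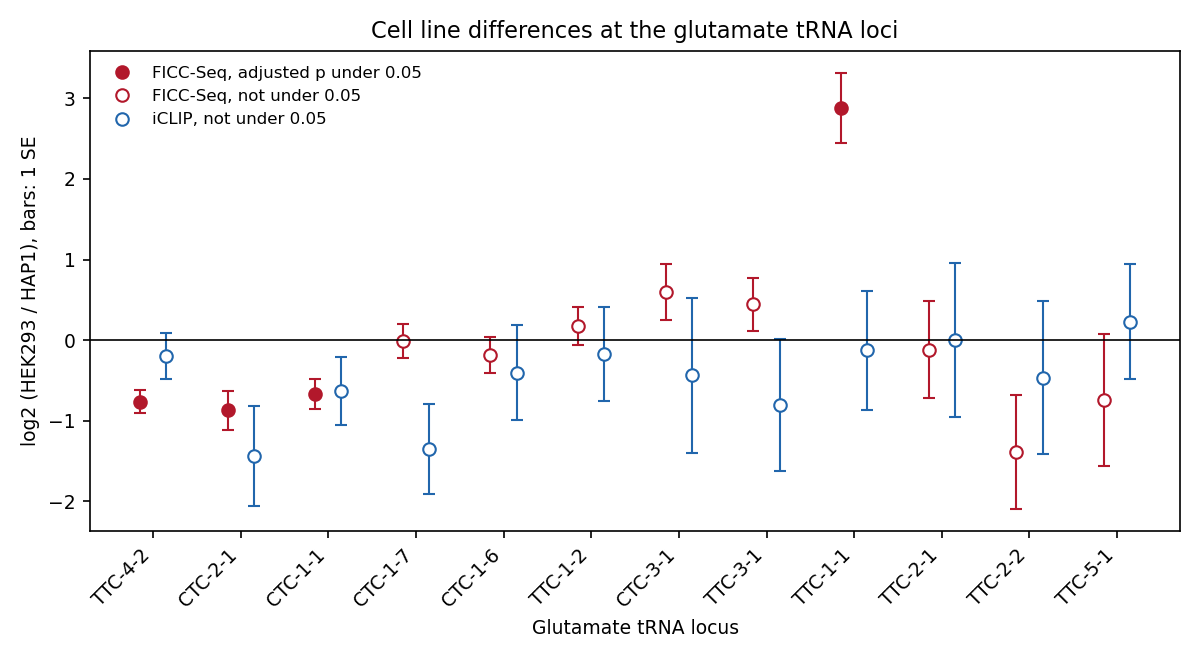
Log2 fold change of HEK293 over HAP1 (y axis) with 1 SE for each glutamate tRNA locus (x axis), in FICC-Seq (red) and iCLIP (blue), from limma-voom over 3 libraries a group. Filled points passed an adjusted p of 0.05: TTC-1-1 at 2.88, TTC-4-2 at -0.76, CTC-2-1 at -0.87 and CTC-1-1 at -0.67, all in FICC-Seq.

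The glutamate tRNAs were next set against other tRNAs of the same libraries. Asp and Lys were taken as families of other charged amino acids and Gln as that of the amide of glutamate, and the first base of the T-loop was found at 233 tRNA loci. In the 6 FICC-Seq libraries positions 53 and 54 held more of the glutamate counts than of those of the 221 other tRNA loci, by 9.02 ± 2.71 points (SD, n = 6), with the glutamate tRNAs higher in 6 of 6 libraries (exact sign-flip permutation p = 0.03125, the smallest possible, adjusted p = 0.0703 over the 9 tests above and 0.0375 over the 6 family tests). Position 58 held less, by -8.04 ± 2.26 points, also in 6 of 6. Against the 7 Asp loci the order was the other way round, with -15.2 ± 3.89 points at positions 53 and 54 and 9.90 ± 3.23 points at position 58 (exact sign-flip p = 0.03125 for each, adjusted p = 0.0375). Against the 20 Lys loci with a T-loop the difference was -2.69 ± 2.19 points at positions 53 and 54 (exact sign-flip p = 0.0625) and 1.79 ± 1.34 points at position 58, where 6 of 6 libraries had more on the glutamate tRNAs (exact sign-flip p = 0.03125). The Asp tRNAs had 92.0% and 91.7% of their FICC-Seq counts at positions 53 and 54 in HEK293 and HAP1, on average, whereas all other tRNAs had 70.2% and 65.1%.

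The Gln tRNAs, from 7 loci, were almost absent from FICC-Seq, with 16 counts in HEK293 and 39 in HAP1, and no test was made on them. They had 170 and 125 counts in the much smaller iCLIP libraries and 1856 in miCLIP. The glutamate tRNAs, from 12 loci, had 3380 counts in FICC-Seq HEK293, 6648 in FICC-Seq HAP1, 496 and 628 in the iCLIP groups and 3656 in miCLIP. Over the 14 libraries, the summed log2 CPM of the glutamate tRNAs was most like that of tRNA-Lys-CTT (Pearson r = 0.961), tRNA-Ala-CGC (0.950) and tRNA-Ile-AAT (0.950) among 44 anticodon families. CTC and TTC sums followed each other with r = 0.917. These correlations describe 14 libraries that fall into 5 groups and share their depth scale.

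The identity of the genes sets a limit to all values of single loci, since the authors kept only reads that mapped to 1 place. It also limits the glutamate share of tRNA counts and the CTC share, which hold only the reads that could be placed. The length that a cDNA must read, from its start towards the 3′ end and into the genomic sequence past the gene, before its letters occur once in GRCh37 was therefore determined for every position. For a stop at position 53 it was from 16 to 24 nt over the 12 loci (median 21), for one at 54 from 16 to 23 nt (median 20) and for one at 58 from 16 to 19 nt (median 17). For a stop at the first base of the anticodon it was from 16 to 41 nt (median 39). Without CTC-3-1 and TTC-5-1, stops at positions 2 to 26 needed from 39 to 60 nt, and for 102 starts there even 60 nt did not suffice. Stops in the leader, 59 nt before U54, needed from 16 to 33 nt at 11 loci (median 18) and over 60 nt at the other one. The empty first 26 positions and the counted leader thus coincide, at most loci, with stretches that are hard and easy to place. At CTC-3-1, 16 nt sufficed 40, 30 and 19 nt before U54, and it had 0 counts at positions 1 to 26 and in the anticodon arm. TTC-5-1 had 2 counts at positions 1 to 26 in iCLIP HEK293 and 1 in iCLIP HAP1. The anticodon arm held 20.2% and 24.8% of the miCLIP counts. The part of placement in the profile, and in the differences between the methods in these shares, was not tested.

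**Figure D5:**
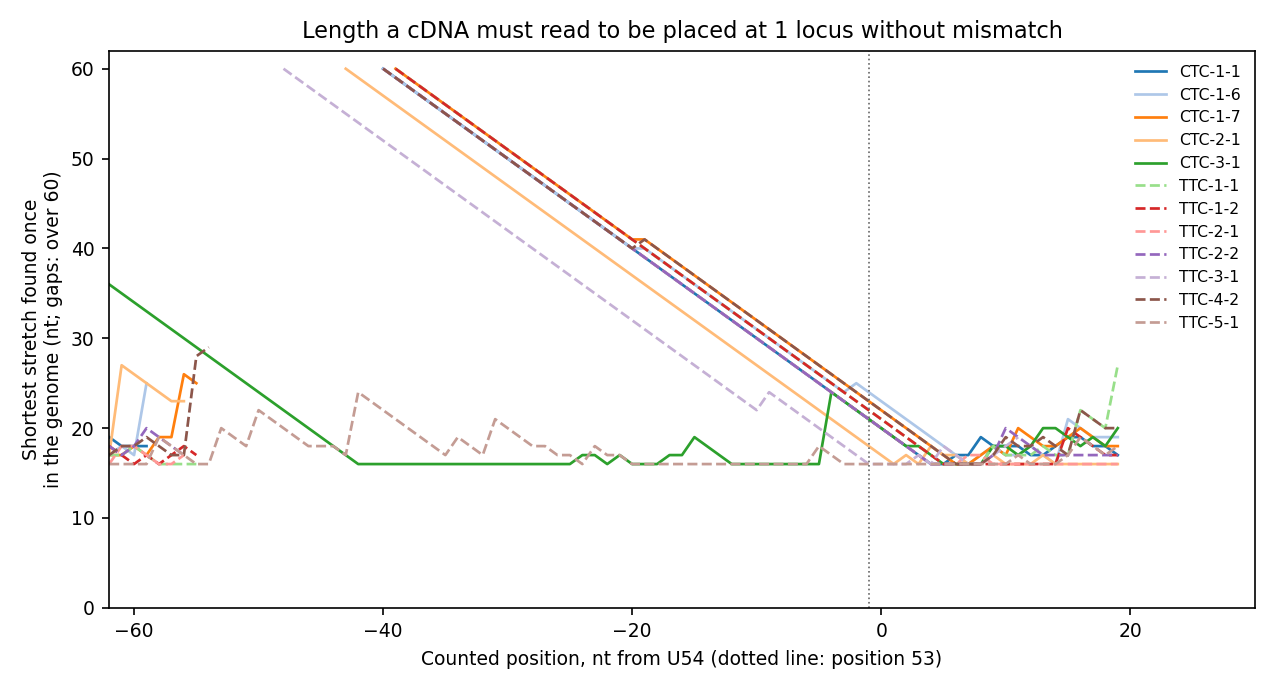
Shortest stretch in nt, read 3′ from each counted position, that occurs once in the genome without mismatch (y axis, from 0, searched from 16 to 60 nt; gaps are over 60) against the distance of the position from U54 in nt (x axis), with 1 line per locus and some lines on top of each other. Stops at position 53 (dotted line) need from 16 to 24 nt, whereas stops at positions 2 to 26 need at least 39 nt at all loci but CTC-3-1 and TTC-5-1.

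The stretches that make most stops unique are the bases after position 73, which belong to the precursor and not to the mature tRNA, where CCA follows instead. Positions 54 to 73 followed by CCA were therefore searched in the genome as well, with up to 2 mismatches allowed. The mature end of CTC-1-1, CTC-1-6, CTC-1-7, CTC-3-1 and TTC-4-2 is 1 sequence, and it fitted best, with 1 mismatch, at 5 places, among which CTC-3-1 was the only one of the glutamate loci. The mature end of TTC-1-1 and TTC-1-2 is also 1 sequence, and it fitted with 1 mismatch at 1 place, TTC-1-1, and with 2 at TTC-1-2. This end of the mature tRNA is thus closer to TTC-1-1 in the genome, whichever of both genes it came from. That of TTC-2-1 and TTC-2-2 fitted with 2 mismatches at 3 places, and that of CTC-2-1 with 2 at 8 places. The difference between TTC-1-1 and TTC-1-2 in the cell lines concerns a locus that holds such a best fit, TTC-1-1, and the part of the mapping in it was not tested. CTC-3-1 also holds such a best fit. This search began at position 54, however, and did not cover cDNAs that stop at position 58, which begin further 3′. For a stop at position 58, the first 16 nt occurred at 54 places in the genome for CTC-3-1 and at 1 place for CTC-1-1. They also occurred at 1 place for TTC-2-1, TTC-2-2 and TTC-5-1, which had 0 FICC-Seq counts there as well. The part of the mapping in the lack of counts at position 58 of CTC-3-1 was not tested. These searches were chosen after seeing the data.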

How the data were processed

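The deposited files hold signed whole numbers per genomic position (a score, in which the sign gives the strand and the size the cDNA count), made by the authors with the iCount web server. Per the methods, PCR duplicates were discarded by random barcodes, reads were mapped to hg19 (GRCh37) with bowtie, mismatches being allowed and the best alignments kept, and only uniquely mapping reads were counted. The cluster table had been built from these libraries. The members and lists were chosen with earlier results of these data known.

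For each library, the absolute scores on the strand of a cluster were summed from 100 nt 5′ to 25 nt 3′ of it, and position 54 was taken from the T-loop in GRCh37, with at least 4 of 5 T-stem pairs. Library totals ran from 7002 to 104605. Groups came from the labels. As the signed values are scores, limma-voom (limma 3.58.1, R 4.3.3) was used in place of a negative binomial count model, over loci with at least 10 counts in at least 2 libraries, all groups in 1 fit, with Benjamini-Hochberg adjustment and a threshold of 0.05. Every adjusted p of a single locus is from this fit unless another is named. Shares were compared by two-sided exact permutation tests over all labelings or sign flips, written in Python, and the 95% Wilson intervals came from scipy 1.17.1.

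Values in every library are given for the 3 loci with the most FICC-Seq counts, those called between the cell lines in FICC-Seq, the locus highest in miCLIP and the one with the fewest counts. Libraries of the same number deviated together across the cell lines in FICC-Seq (correlations of deviations 0.425, 0.658 and 0.320) and less so in iCLIP (0.205, 0.265 and 0.109). The number was therefore also used as a block there. The alternatives were limma-trend, scaling by the median ratio, no filter, tRNA loci only, counts within 5 nt of the clusters, replicate blocks and leaving out each library, and for shares also leaving out positions with a single count, a correction for barcode collisions, equal weights for all loci and the most counted position of the other cell line in place of position 53. Gene annotation came from GENCODE for GRCh37, which was not used for nuclear tRNA genes, and RefSeq symbols were found for 10 of the 12 loci. Scripts ran in Python 3.11.15 with pysam 0.24.0 and were tested on simulated data.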

Additional observations from a re-analysis of the deposited data

Results flagged for a closer look

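At tRNA-Glu-TTC-1-1 the log2 fold change of HEK293 over HAP1 was larger in FICC-Seq than in iCLIP by 2.83 (SE 0.76, adjusted p = 0.0257, limma-voom) when the replicate number within each method was a block across the cell lines. Without that block the difference was 3.01 (SE 0.856) and its adjusted p was 0.148. It was singled out because the same contrast differed between both methods by a test of the difference itself, in the fit with the block, which was chosen after seeing the data.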

How the results depend on the processing

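No result that had passed its test turned its direction. The CTC minus TTC share, which had not passed, turned from 1.71 to -5.14 points with the loci weighted equally. The number of glutamate loci called between FICC-Seq HEK293 and HAP1 fell from 4 to 2 in limma-trend and ranged from 2 to 4 when each library was left out. Between iCLIP HEK293 and HAP1 it rose from 0 to 1 in limma-trend and to 1 with the replicate number within each method as a block across the cell lines, while the calls over all 289 loci rose from 4 to 7 and 13. That block also gave 1 call for the cell line difference by method, and 16 of 289 over all loci. The cause was not tested. The share of positions 53 and 54 on glutamate minus other tRNAs ranged from 8.28 to 9.78 points when a library was left out, where 5 libraries allow no exact p below 0.0625. FICC-Seq and iCLIP libraries of the same number within a line had correlations of deviations from -0.111 to 0.237, overlapping those of iCLIP across the lines (0.109 to 0.265). With them as pairs, the differences stayed at 3.54 points for the glutamate share, 11.57 for the CTC share and 51.84 for positions 53 and 54 (exact sign-flip p = 0.0312 each), and limma with a replicate block within each library set (correlation 0.136) changed no count of glutamate loci called. Of 408 values of single loci under alternatives other than leaving out a library, 397 stayed as called or as not called, 7 lost their call and 4 gained one. With a library left out, 830 stayed so and 10 lost their call. Many of these values had no call to lose. The main fit called 10 of 12 loci in FICC-Seq against iCLIP and 11 in FICC-Seq against miCLIP. It called 4 between the cell lines in FICC-Seq and 0 in the other contrasts. Among the 408, those of FICC-Seq against iCLIP with the block across the cell lines refer to replicate 1 of each method. Depth limits the iCLIP values most, which rest on 116 to 233 glutamate counts per library.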
